A study of Mus musculus with 44 samples.

Results

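The DNA regions described here gave strong open chromatin peaks in depolarized mouse cortical neurons and no peak in silenced ones, and they were followed across the other neurons of the same study. Open chromatin was profiled by ATAC-seq, in which a transposase inserts sequencing adapters into DNA it can reach, in neurons cultured from the cortex of E16.5 mouse embryos. All wells were silenced overnight with tetrodotoxin, a sodium channel blocker, and D-AP5, an NMDA receptor blocker, and the depolarized wells then received 50 mM KCl. The 44 libraries form 22 groups of 2. The regions were chosen in neurons at day 18 in vitro (DIV18) that carried a non-targeting guide and an empty vector, either unstimulated or depolarized for 30 min. The 75000 autosomal intervals with the highest −log10 p were taken from each of those 4 libraries and merged into 97239 regions. The regions of interest were overlapped by both depolarized lists and by no interval, however weak, of either whole unstimulated list. They number 148 of the 97239 regions (mm10 coordinates throughout), and the same rule with the states swapped gave 58 regions. Because the 4 non-targeting DIV18 libraries chose the regions, their values there are given as a description without a test.

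The other groups did not enter the choice of regions. At DIV18 they were Smarcc2 knockout neurons with an empty vector, and Smarcc2 knockout neurons with an add-back of wild-type Smarcc2, of Smarcc2 S586A or of Smarcc2 S586E, in which alanine or glutamate takes the place of a serine, each unstimulated or in KCl for 30 min. At DIV7 one experiment held neurons with non-targeting or Arid2 knockout guides, each unstimulated or in KCl for 30 min. The second DIV7 experiment held wild-type neurons in 0.1% DMSO or 100 nM FHT1015, a compound that inhibits the ATPase of BAF, each unstimulated or in KCl for 10 or 30 min, with the drug present for the same time as the KCl. During the treatment the wells also held DNase. Per the labels 1 embryo's cortex is 1 replicate, but no library is tied to an embryo, so p-values measure only the spread between these libraries, which may be technical. The guides act in a mixed culture, and in bulk samples of this kind fewer cells of a type and less signal per cell cannot be told apart.

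Depolarization admits calcium through voltage-gated channels. Calcium-dependent kinases then act on factors such as CREB, SRF and MEF2, which switch on early activity genes within minutes. The products of these genes, among them the AP-1 proteins FOS and JUNB, then bind enhancers of later genes. CREB binds the cAMP response element, whose core is TGACG. Chromatin can also open where polymerase passes, in gene bodies and in the DNA just past the 3′ end. BAF and PBAF are ATP-dependent remodelers that move nucleosomes. SMARCC2 is a core subunit of such complexes, and ARID2 is found only in PBAF.

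The regions varied in width, and 8 of the 148 lay within 1 kb of a gene start (5.41%, against 11.4% of all merged regions). The median width of the 148 was 485.5 bp (range 214 to 5461 bp), against 637 bp for all merged regions. They were divided at 1 kb, a limit chosen after the widths were seen. There were 35 wide regions of 1 kb or more (23.6%, against 25.8% of all merged regions), with a median of 1898 bp. The other 113, under 1 kb, are called narrow and had a median of 431 bp. Among the 35 wide regions, 0 came within 1 kb of a protein-coding gene start, against 35.5% of all wide regions in the merged set. Of the 35, 20 lay inside a gene (57.1%, against 41.5% of all wide regions), and 11 lay across or within 10 kb beyond a 3′ end (31.4%, against 5.24%). Gene strand was not known for 6 of the 35. Among wide regions with a known strand and away from starts, the share centred within 10 kb beyond a 3′ end was 11 of 29 (37.9%), against 10.2% of 10994. The remaining 4 wide regions lay outside genes, within 100 kb of one. Of the 113 narrow regions, 8 lay within 1 kb of a start (7.08%, against 3.02% of all narrow regions in the merged set). At or past a 3′ end were 4 (3.54%, against 5.52%), and 57 lay inside a gene (50.4%, against 53.4%). Outside but within 100 kb were 38 (33.6%, against 26.1%), and 6 lay farther away (5.31%, against 11.9%). The 148 regions had 138 nearest genes, and 9 genes were nearest to more than 1 region, with 3 regions at Ccnl1, so neighbouring regions are not independent of each other.

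The promoters of the genes with wide regions are shown first, since the regions themselves lay away from the starts. RefSeq promoter windows on GRCm38.p6, 250 bases before to 50 after a start, were found for 25 of the 30 genes with a wide region inside or within 10 kb. The core TGACG, searched on both strands, was in 15 of the 26 windows of these genes (57.7%), against 21% of all 31396 autosomal windows and 30.3% of the windows overlapped by a merged region. The 15 windows belong to Aqp12, Arl5b, Atf3, Ccnl1, Dnajb9, Dpm1, Dusp5, Ifrd1, Mocs3, Nr4a1, Rgs4, Slc25a3, Srsf5, Tpt1 and Zfand5. In the windows of the genes with a narrow region it was in 28 of 88 (31.8%). The 8-letter element TGACGTCA, which contains the core, was in 2 of 26 windows, those of Arl5b and Ccnl1, against 1.83% of all windows and 3.09% of those at a merged region. The AP-1 motif TGANTCA was in 0 of 26 windows and 5 of 88 (5.68%), against 7.84% of all windows and 5.52% of those at a merged region. These are matches of letters and not sites of binding. For 6 of these genes the 250 bases before the start are printed 5′ to 3′ on the strand of the gene, with the core or its reverse complement in capitals.
Arl5b (chr2:15055070-15055319, plus strand): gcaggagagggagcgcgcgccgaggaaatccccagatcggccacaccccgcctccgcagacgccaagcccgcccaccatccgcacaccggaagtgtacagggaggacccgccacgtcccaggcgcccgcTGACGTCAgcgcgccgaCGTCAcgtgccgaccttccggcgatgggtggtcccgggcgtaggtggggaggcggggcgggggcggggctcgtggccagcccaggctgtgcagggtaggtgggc
Atf3 (chr1:191183334-191183583, minus strand): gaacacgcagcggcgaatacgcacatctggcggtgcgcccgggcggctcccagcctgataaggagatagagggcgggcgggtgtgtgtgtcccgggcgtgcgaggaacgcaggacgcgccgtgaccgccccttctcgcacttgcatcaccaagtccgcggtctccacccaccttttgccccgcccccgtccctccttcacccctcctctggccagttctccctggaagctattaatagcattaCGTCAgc
Ccnl1 (chr3:65958250-65958499, minus strand): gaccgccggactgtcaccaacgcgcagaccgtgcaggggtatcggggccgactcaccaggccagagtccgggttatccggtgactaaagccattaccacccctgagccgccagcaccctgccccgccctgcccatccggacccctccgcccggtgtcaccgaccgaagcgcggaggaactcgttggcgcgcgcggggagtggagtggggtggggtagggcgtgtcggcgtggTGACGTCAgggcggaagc
Dnajb9 (chr12:44210069-44210318, minus strand): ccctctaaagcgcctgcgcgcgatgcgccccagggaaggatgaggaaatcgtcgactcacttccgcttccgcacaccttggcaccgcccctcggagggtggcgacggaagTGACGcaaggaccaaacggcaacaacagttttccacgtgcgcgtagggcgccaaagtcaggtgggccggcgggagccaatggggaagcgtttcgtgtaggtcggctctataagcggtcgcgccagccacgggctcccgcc
Nr4a1 (chr15:101266596-101266845, plus strand): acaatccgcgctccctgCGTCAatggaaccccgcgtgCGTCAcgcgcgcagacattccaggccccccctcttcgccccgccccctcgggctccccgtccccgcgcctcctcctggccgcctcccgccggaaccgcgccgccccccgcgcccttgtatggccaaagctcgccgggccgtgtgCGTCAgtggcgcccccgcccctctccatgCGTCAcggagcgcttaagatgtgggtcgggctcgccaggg
Rgs4 (chr1:169747643-169747892, minus strand): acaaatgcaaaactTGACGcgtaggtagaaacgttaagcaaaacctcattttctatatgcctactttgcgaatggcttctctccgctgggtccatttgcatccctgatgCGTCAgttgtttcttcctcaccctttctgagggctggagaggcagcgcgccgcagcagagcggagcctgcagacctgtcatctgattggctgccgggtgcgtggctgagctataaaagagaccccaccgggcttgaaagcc
Among these 6 stretches, that of Nr4a1, an early activity gene for an orphan nuclear receptor, held 4 cores. That of Arl5b held 3, those of Ccnl1 and Rgs4 held 2 each, and those of Atf3 and Dnajb9 held 1. The element TGACGTCA counts as 2 overlapping cores, 1 on each strand. Both cores of Ccnl1, and 2 of the 3 of Arl5b, are 1 such element. None of the wide regions overlapped a promoter window, so the motifs above lie outside these regions. Other merged regions at the starts of these genes are described below. Of all 148 regions, 3 overlapped a window, at Gpr4, Lrrk1 and 1700126H18Rik. No annotated miRNA hairpin lay in the regions.

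To compare libraries of unequal depth, each region received a rank score. The rank of the strongest interval that overlaps it was set against 133009, the number of autosomal intervals in the shortest list, and the score is the log2 of 133009 over that rank. A region with no interval, or with one ranked beyond 133009, scores 0. A score higher by 1 thus stands for a rank smaller by a factor of 2. Changes were tested with limma across all regions of an experiment, with Benjamini-Hochberg adjustment, and called at an adjusted p under 0.05. The libraries differed in depth as read from the lists: background pileup was 2.85 and 3.68 in the depolarized non-targeting DIV18 libraries against 1.51 and 2.23 in the unstimulated ones. In the other 4 DIV18 arms the medians were closer, 2.045 in KCl (1.77 to 2.5) and 2.13 unstimulated (0.942 to 2.41). The Smarcc2 S586E unstimulated replicate 1 had the lowest value. Over all 44 libraries 133009 to 276666 autosomal intervals were listed. Pan-neuronal genes had a top interval at the start for 3 to 4 of 4 markers in each library, excitatory genes for 14 to 16 of 16, microglial genes for 1 to 2 of 9 and vascular genes for 0 to 4 of 8, while astrocyte genes (6 to 11 of 12) and progenitor genes (10 to 14 of 14) were also open. Whether depth or cell makeup had a part in the results was not tested.

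The regions opened with KCl in the 4 DIV18 arms that did not choose them. Over these arms, 138 of the 148 regions rose and 0 fell, at a median change of 0.81 in rank score (interquartile range 0.602 to 1.21, median SE 0.157). Across all 96868 regions tested, 17.8% rose and 18.5% fell, with a median change of −0.02. All 35 wide regions rose (median 0.98) and 103 of the 113 narrow regions did (median 0.79). The 10 that were not called were all narrow, at Pknox2, Gpr4, Foxp1, Atp8b1, Foxf1, Klhl29, Fgd2, Best2, Cdca7l and Cpsf2. The 58 regions of the swapped rule went the other way, with 40 that fell and 0 that rose (median −0.49). With the number of intervals in a library as a covariate, 94 of the 148 were called. A region was tested if 2 or more libraries of the fit had an interval ranked within 133009. At least 35 of the 148 passed this filter through depolarized libraries alone, having no interval in any unstimulated library of these arms. Without the filter 134 rose, where 17.4% of all regions did. Where every unstimulated score is 0, that state also adds no spread to the standard error.

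The silenced libraries of these arms were not empty at the regions, and the wide and narrow regions differed there. In the 8 depolarized libraries, 32 to 35 of the 35 wide regions had an interval, against 1 to 8 in the 8 unstimulated libraries. Of the narrow regions, 106 to 113 of 113 had an interval in KCl and 25 to 62 had one unstimulated. The library at the low end of both unstimulated ranges was S586E replicate 1, the shallowest. Of the 148 regions, 35 had an interval in 0 of the 8 unstimulated libraries, 22 of them wide, and 5 had one in all 8, all narrow. The lowest depolarized score lay above the highest unstimulated score for 49 regions, 20 wide and 29 narrow, where 3.22% of all regions tested were separated in this direction.

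**Figure D1:**
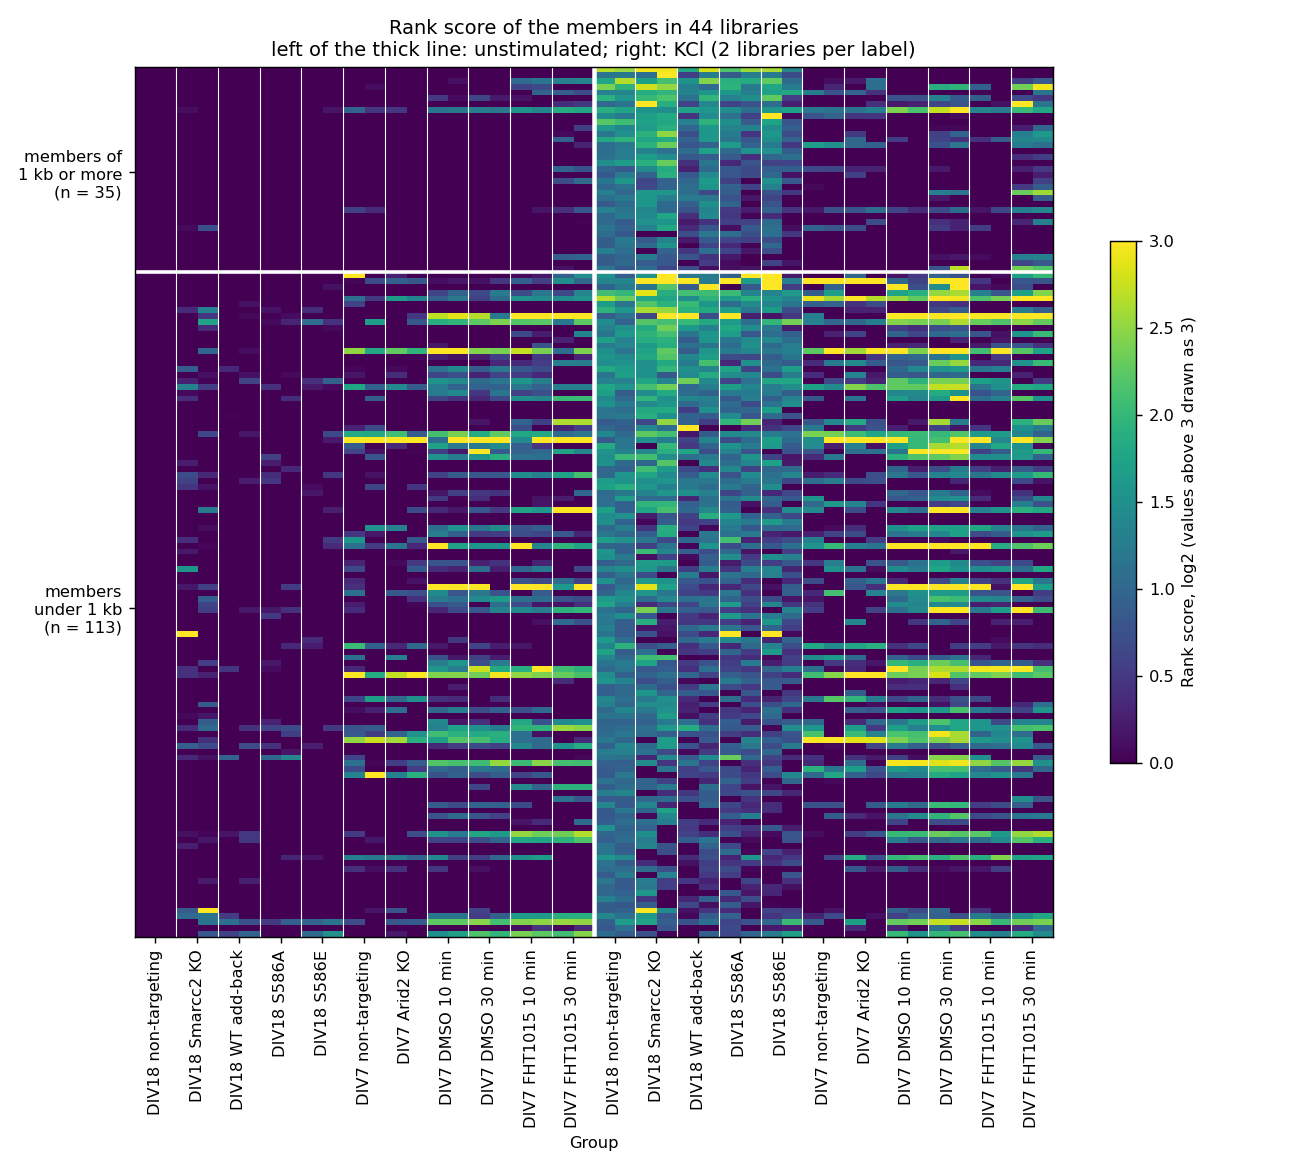
Rank score (log2, colour, values above 3 drawn as 3) of the 148 regions (rows, the 35 of 1 kb or more on top) in all 44 libraries (columns, unstimulated left and KCl right of the thick line). The 8 depolarized columns of the other 4 DIV18 arms are bright in both blocks of rows, while at DIV7 many rows are at 0 in both states and others are bright in both.

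**Figure D2:**
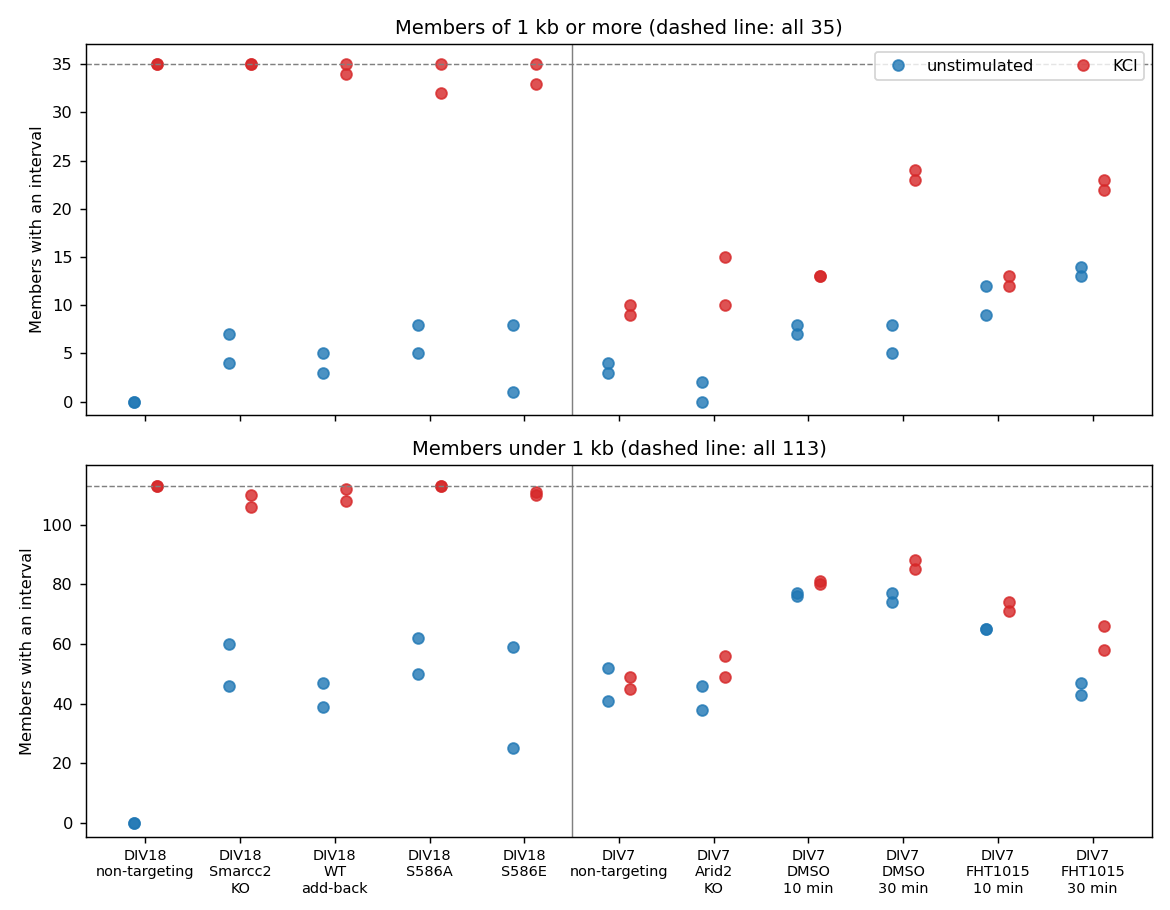
Number of regions with any overlapping interval (vertical axis) in each library, by group, for the 35 wide (top) and 113 narrow regions (bottom); each point is 1 library and the dashed line marks all regions. The non-targeting DIV18 points at 0 and at the dashed line follow from the rule. In the other DIV18 arms all depolarized points lie above all unstimulated points.

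Of the 11 wide regions at or past a 3′ end, 9 lay wholly beyond the annotated end and 2 lay across it. The best ranked of all 148 was at Dnajb9 (chr12:44202058-44206727), which encodes a chaperone of the endoplasmic reticulum that is made under protein folding stress. It ran from 0.83 kb before the 3′ end to 3.84 kb beyond, and a second region followed from 4.18 to 7.31 kb beyond. The first region ranked 20909 and 22917 in the depolarized non-targeting libraries, with authors' fold enrichments of 24.79 and 21.32. In the other 4 arms its score was 1.37 at the lowest, 2.58 at the median and 2.94 at the highest of the 8 depolarized libraries, and 0 in all 8 unstimulated ones. The groups did not overlap, and the change was 2.40 ± 0.20 (SE, adjusted p = 1.33e-07). At Rgs4, which encodes a GTPase activator that shortens G protein signals, the widest region of the set (chr1:169734444-169739904) spanned 1.57 to 7.03 kb beyond the 3′ end. Its 8 depolarized scores ran from 0.777 through a median of 1.61 to 1.94, and the 8 unstimulated scores were 0. All depolarized libraries were higher, and the change was 1.46 ± 0.18 (adjusted p = 6.3e-06).

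Further regions past 3′ ends rose at genes of varied function. Srsf7, which encodes a splicing factor of the SR family, had a region across its 3′ end (chr17:80198702-80201251) and another 1.87 to 3.39 kb beyond. The first had depolarized scores of 1.06, 1.88 and 2.44 (lowest, median and highest of 8) and unstimulated scores of 0. It rose by 1.86 ± 0.20 (adjusted p = 1.61e-06), with no overlap between the states. Slc25a3, which encodes the mitochondrial phosphate carrier, had a region from 0.036 to 2.87 kb beyond its end (chr10:91113702-91116538). Its depolarized scores were 0.45, 1.39 and 2.49 against 0 in all 8 unstimulated libraries, a rise of 1.33 ± 0.18 (adjusted p = 2.46e-05). Ctsl, the gene for the lysosomal protease cathepsin L, had one from 0.052 to 3.67 kb beyond (chr13:64358217-64361838). Its 8 depolarized scores ran from 0.548 through 1.73 to 2.27, all above the unstimulated scores of 0, a rise of 1.61 ± 0.21 (adjusted p = 1.52e-05). The Ctsl region was not without intervals before KCl: weak ones were listed in unstimulated libraries of all 4 arms. Their fold enrichments were 2.18 to 3.92, against 5.94 to 16.6 in KCl. Regions beyond Mocs3, Rem2, Tpt1 and Dusp5 also rose, by 1.01 at Mocs3, 0.35 at Tpt1 and 0.84 at Dusp5, which encodes a phosphatase that inactivates ERK. When each summit was ranked by itself the call at Tpt1 was lost (adjusted p = 0.145). With intervals required to cover at least 50% of a region, the changes at Dnajb9 (1.04), Rgs4 (0.86), Slc25a3 (0.95) and Dusp5 (0.50) did not pass.

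**Figure D3:**
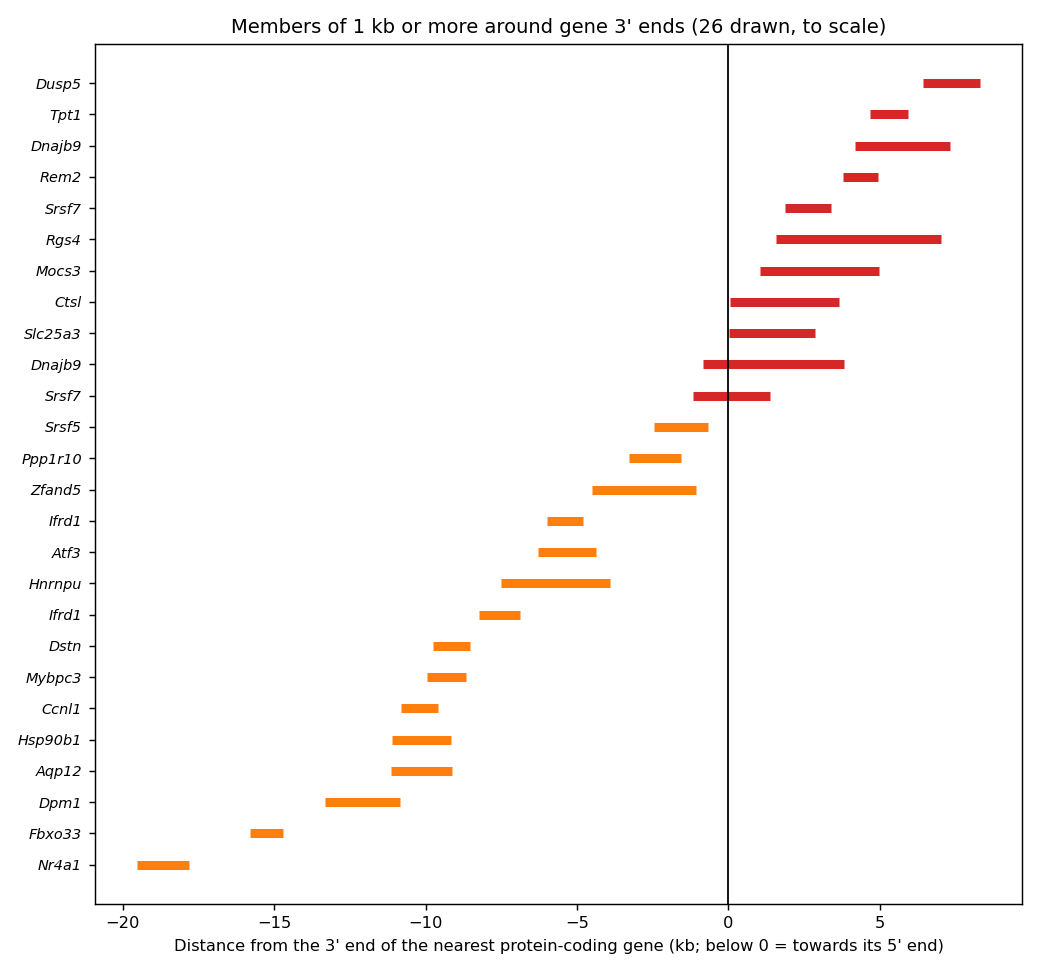
Position of 26 wide regions (bars, to scale) relative to the 3′ end of the nearest protein-coding gene of known strand (vertical line; horizontal axis in kb, negative towards the 5′ end); regions with both ends over 25 kb away are not drawn. The 11 red bars reach past the 3′ end and the 15 orange bars end before it.

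Wide regions inside gene bodies rose as well. Zfand5, which encodes a zinc finger protein that promotes protein breakdown, had depolarized scores of 1.30, 1.65 and 1.97 and unstimulated scores of 0. It rose by 1.65 ± 0.15 (adjusted p = 3.24e-07). Weak unstimulated intervals, at fold enrichments of up to 3.61, were listed there in the knockout, S586A and S586E arms. In 3 of the 8 depolarized libraries the strongest summit of the interval lay outside the Zfand5 region. With summits ranked by themselves the rise was 1.13. Srsf5, a second gene for an SR splicing factor, had depolarized scores of 0.793, 1.32 and 1.84 over unstimulated scores of 0, a rise of 1.32 ± 0.15 (adjusted p = 4.69e-06). At Syt4, which encodes a synaptotagmin of vesicles, a region of chromosome 18 (chr18:31434435-31438200) had depolarized scores of 1.05, 1.53 and 2.78 and unstimulated scores of 0. It rose by 1.73 ± 0.17 (adjusted p = 6.39e-07), and the states did not overlap. With a 50% overlap required, the changes at Syt4 (0.59) and Srsf5 (0.43) did not pass. Ccnl1, which encodes a cyclin that regulates splicing, held 1 wide and 2 narrow regions. The best ranked of them (chr3:65955058-65955425) had scores of 1.34, 1.96 and 2.88 against 0, a rise of 1.91 ± 0.18 (adjusted p = 5.57e-07).

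Other DNA at the genes of the wide regions also opened. Of 23 merged regions near the starts of 21 of these genes, 17 rose over the 4 arms (73.9%) and 0 fell, with a median of 0.60, where 31.5% of 11064 start regions of all genes rose and 10.9% fell. Of 121 further regions in the bodies or past the 3′ ends of the same genes, 59 rose (48.8%) and 11 fell (9.09%), against 15.8% and 21.5% of 53954 such regions at all genes. The genes of the narrow regions were nearer to the whole set: 33 of 69 start regions rose (47.8%) and 21.9% of 828 body or 3′ regions did. At Nr4a1 all 4 other regions rose, and at Ccnl1 all 4 others did. No test was made of these shares, since the genes were chosen by their regions.

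Early and late activity genes were near a small share of the regions. Of the 148, 12 (8.11%) were inside or within 100 kb of a gene of an early activity list, against 1.18% of all merged regions, and 10 of the 12 rose. For a late activity list the count was 5 (3.38%, against 0.583%), and all 5 rose. Of the 1138 regions tested near early genes, 357 rose and 185 fell, and of the 561 near late genes, 184 rose and 78 fell. A region 39 kb from Fos (chr12:85434061-85434863), which encodes a subunit of AP-1, had depolarized scores of 0.627, 1.19 and 1.57. Its unstimulated scores reached 0.586, in the knockout arm. The states did not overlap and the change was 1.03 ± 0.16 (adjusted p = 7.36e-05). Nr4a1 held a region in its body (chr15:101255250-101256979), centred 10.7 kb upstream of the start used for its promoter above. Its depolarized scores were 0.0785, 1.28 and 4.58 over unstimulated scores of 0, a rise of 1.47 ± 0.40 (adjusted p = 0.00699). The highest value, in S586E replicate 1, came from a summit outside the region, and with summits ranked by themselves the rise was 0.64. Atf3, which encodes a stress-induced partner of AP-1, had a wide region in its body with scores of 0, 0.535 and 1.08 in KCl and 0 unstimulated. It rose by 0.51 ± 0.15 (adjusted p = 0.0135), a call that was lost with summits ranked by themselves (adjusted p = 0.0539). With the interval covariate the calls at Nr4a1 and Atf3 were lost.

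Of the other regions near activity genes, most rose too. Near Tiparp, the gene for a mono-ADP-ribosyltransferase, the depolarized scores were 0.318, 1.03 and 1.43 and the region rose by 0.99 ± 0.14. Near Sik1, the gene for a kinase that restrains CREB coactivators, they were 0, 0.897 and 1.97, a rise of 0.98 ± 0.15. Near Nptx2, the gene for a secreted pentraxin of synapses, the change was 0.80 ± 0.16. Regions near Nefm (0.75), Fbxo33 (0.70), Spry2 (0.53) and Alox12b (0.40), the last near the clock gene Per1, rose as well, but the last 3 calls were lost with the interval covariate, that of Alox12b also by summits and that of Spry2 also with 50% overlap. A region at the start of Gpr4, near Fosb, changed by 0.29 ± 0.22 (adjusted p = 0.301), and one at Best2, near Junb, by 0.24 ± 0.12 (adjusted p = 0.132). A region near Klf6, the gene for a zinc finger factor, had depolarized scores of 0.199, 1.39 and 7.75 and a change of 3.50 ± 0.94 (adjusted p = 0.00711). Its 3 highest libraries took the rank of a stronger summit in an interval that reached outside the region, and with summits ranked by themselves the rise was 0.71. With a 50% overlap required (2.62) or with the covariate (2.94) its change did not pass.

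The other lists gave few regions. Synapse and excitability genes had 3 of the 148 within 100 kb (2.03%, against 1.0% of all regions), at Cacna1c and Syt1 and near Scn2a. All 3 rose, while of the 973 regions tested near these genes 171 rose and 215 fell. Genes of BAF and PBAF subunits had 0, as did inhibitory neuron, astrocyte and oligodendrocyte genes. The lists at 0 hold 0.723% (BAF and PBAF), 0.247%, 0.269% and 0.243% of all regions. Excitatory neuron, microglial, vascular and progenitor genes had 1 each (0.676%, against 0.405%, 0.221%, 0.185% and 0.287% of all regions) and housekeeping genes 2 (1.35%, against 0.384%).

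Among the remaining narrow regions, one 724 bp wide at Dennd4a, the gene for an exchange factor of Rab GTPases, ranked second of all 148. Its depolarized scores in the 4 arms were 1.34, 1.69 and 1.94 and its unstimulated scores were all 0, a rise of 1.67 ± 0.16 (adjusted p = 3.88e-07). A region 45.7 kb from Cdk1 (chr10:69398615-69399739, itself of 1 kb or more) had depolarized scores of 1.08, 1.57 and 1.74 and a highest unstimulated score of 0.163. It rose by 1.49 ± 0.15 (adjusted p = 8.79e-07), but with a 50% overlap required its change was 0.16 and did not pass. One 263 kb from Adamts20 had depolarized scores of 0, 1.24 and 1.58 and unstimulated scores of up to 0.461, so the states overlapped, and it rose by 1.02 ± 0.18 (adjusted p = 2.88e-04). Near Meis2, a homeobox gene, the scores were 0.347, 1.37 and 2.11 against 0, a rise of 1.30 ± 0.18 (adjusted p = 2.64e-05).

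Some of the largest changes were set by neighbouring DNA. For 127 of the 148 regions the strongest summit of the interval lay inside the region in all 8 depolarized libraries of the 4 arms, and for 21 it lay outside in at least 1. R3hdm2 had the most, with 5 of 8: its scores of 1.25, 4.41 and 5.07 gave a change of 3.45 ± 0.49 (adjusted p = 3.18e-05), which was 0.95 with summits ranked by themselves. At Arl13b the scores of 0.00211, 1.01 and 7.27 gave 2.44 ± 0.74 (adjusted p = 0.0143) and 0.62 by summits. At Hsp90b1, which encodes a chaperone of the endoplasmic reticulum, they were 0.562, 1.17 and 9.75, a change of 2.10 ± 0.71 (adjusted p = 0.0264) and 0.66 by summits. With a 50% overlap required (0.76 at Arl13b, 0.30 at Hsp90b1) or with the covariate neither passed, and the call at Hsp90b1 also ended without a filter and without any 1 of 7 libraries.

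Taken arm by arm, fewer regions passed the threshold. In the Smarcc2 knockout 81 rose (median change 1.21; 3.05% of all regions rose), and with the wild-type add-back 46 did (median 0.80; 3.91%). With S586A 34 rose (median 0.76; 2.87%) and with S586E 26 did (median 0.69; 2.66%). These counts rest on 2 libraries a state, and leaving out any 1 of the 4 libraries of the arm lowered them, to 39 to 57 in the knockout, 6 to 24 with wild type, 2 to 8 with S586A and 1 to 15 with S586E, each lowest without the unstimulated replicate 1. In all 4 arms 131 of the 148 were higher in KCl (88.5%), against 23.1% of all regions tested. Called in all 4 were 13 (8.78%, against 0.627% of all regions), at Dnajb9, Dennd4a, Syt4, Srsf7, Ccnl1, the region distal to Cdk1, Tmx1, Ifrd1, Pde10a, Zfand5, F2, Kcnv1 and Nfkbiz, and called in none were 52.

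The difference between arms was tested directly. The knockout response minus the wild-type add-back response was called at 0 regions (median 0.37, range −2.39 to 4.51, median SE 0.443). At an unadjusted limma p under 0.05 were 23, 20 of them positive. S586A minus wild-type gave 0 (median −0.04, 5 at an unadjusted p under 0.05), and S586E minus wild-type gave 0 (median −0.10, 5 at an unadjusted p under 0.05). The medians over all regions tested were −0.04 for the knockout, 0.002 for S586A and 0.05 for S586E. How many of all regions had an unadjusted p under 0.05 was not counted, so these counts have no background. In each of the 3 comparisons limma called 0.0031% of all regions, and with summits ranked by themselves it also called 0 of the 148. The 3 comparisons share the wild-type add-back libraries.

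At DIV7 fewer of the regions had an interval in KCl than at DIV18, and some had one before stimulation. In the Arid2 experiment 54 to 59 of the 148 had an interval in depolarized non-targeting neurons and 45 to 55 in unstimulated ones. In Arid2 knockout neurons the counts were 59 to 71 and 40 to 46. In DMSO they were 93 to 94 after 10 min of KCl and 108 to 112 after 30 min, against 83 to 85 and 79 to 85 unstimulated. The whole merged set was also held less often: 60.2% to 72.7% of all regions had an interval in the depolarized libraries of these 4 DIV7 groups, against 82.7% to 97.3% in those of the other 4 DIV18 arms. Over all 24 DIV7 libraries, 25 regions had no interval in any and 9 had one in every library, all 9 narrow, at Dennd4a, Sh3rf1, R3hdm2, Aen, Fam172a, Hydin, Spata16, Nrep and Slc10a7. The region at Dennd4a scored 0 in all 10 unstimulated DIV18 libraries and 0.51 to 1.65 in the unstimulated DIV7 libraries. Weak DIV18 intervals were listed there in the unstimulated knockout replicate 2 (fold enrichment 2.6) and S586E replicate 2 (3.39). The wide region at Dnajb9 had an interval in 2 of the 24, both depolarized for 30 min in the drug experiment, with authors' fold enrichments of 2.01 and 2.45 and a score of 0. The one at Rgs4 also had an interval in 2 of the 24, but both were unstimulated libraries in DMSO, with fold enrichments of 2.8 and 3.07.

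In the Arid2 experiment 75 regions were tested, 10 of them wide. A single one rose, R3hdm2, in non-targeting neurons (adjusted p = 0.00127) and in Arid2 knockout neurons (adjusted p = 0.00689), where 0.124% and 0.103% of all regions tested rose. Its scores in non-targeting neurons were 0.04 and 0.69 unstimulated and 4.17 and 4.07 in KCl. In the knockout they were 0.92 and 0.83 unstimulated and 4.00 and 3.86 in KCl. All 4 depolarized libraries were above all 4 unstimulated ones, but the call was lost in both genotypes with summits ranked by themselves. It was also lost without either depolarized library in non-targeting neurons and without any 1 of the 4 libraries in the knockout. The median change over the 75 was 0.23 in non-targeting and 0.35 in knockout neurons. The region distal to Fos was at 0 in the 4 unstimulated libraries and at 1.07 and 1.26 in depolarized non-targeting and 0.67 and 0.73 in depolarized knockout neurons. The states did not overlap, and its changes of 1.17 ± 0.28 (adjusted p = 0.211) and 0.70 ± 0.28 (adjusted p = 0.405) did not pass. The difference between genotypes was called at 0 of 75 regions (3 at an unadjusted p under 0.05) and at 0.00279% of all regions. The share of all regions at an unadjusted p under 0.05 was not counted.

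In wild-type DIV7 neurons in DMSO, 10 min of KCl gave few changes and 30 min more. Of the 105 regions tested in the drug experiment (22 wide, 83 narrow), 8 rose and 0 fell at 10 min, where 2.87% of all regions rose (median of the 105, 0.28). At 30 min 49 rose and 0 fell, where 10.7% of all regions rose (median 0.65). By width, 1 wide and 7 narrow regions rose at 10 min and 7 wide and 42 narrow at 30 min. The median of the wide ones was 0.00 at 10 min and 0.37 at 30 min, and that of the narrow ones 0.35 and 0.74. Without the filter on intervals, 6 and 42 of all 148 rose at 10 and 30 min. Of the 105, 13 passed that filter through depolarized libraries alone. Leaving out 1 library gave 4 to 6 at 10 min, lowest without the depolarized replicate 1. The 10 and 30 min responses come from separate libraries, and the difference between them was not tested.

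Single regions show both courses. At Dennd4a the DMSO scores were 0.91 and 1.19 unstimulated and 2.56 and 2.27 after 10 min. In the 30 min set they were 0.57 and 1.04 unstimulated and 3.25 and 2.94 in KCl. The changes were 1.37 ± 0.19 (adjusted p = 0.00419) and 2.29 ± 0.19 (adjusted p = 4.7e-05), so the region rose at both times. At the wide region of Syt4 the scores were 0 in all 4 unstimulated libraries and after 10 min, and 1.88 and 1.95 after 30 min, a change of 1.92 at 30 min. The region distal to Fos was at 0 in the unstimulated and 10 min libraries and at 0 and 0.31 after 30 min, and it did not pass.

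**Figure D4:**
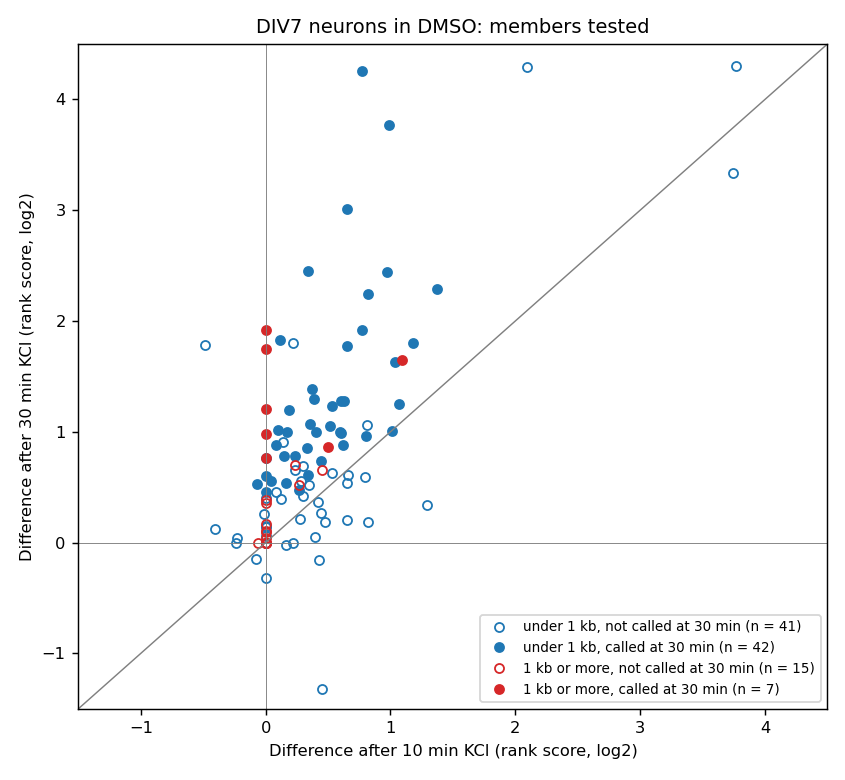
Change in rank score (log2) after 30 min of KCl (vertical axis) against that after 10 min (horizontal axis) in DMSO-treated DIV7 neurons for the 105 regions tested; red points are wide, blue points narrow, filled points were called at 30 min and the diagonal marks equal change. Of the 22 wide points, 7 are filled and most lie on the vertical line at 0 for 10 min.

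With FHT1015 present, responses were mixed in direction. At 10 min 4 regions rose and 3 fell (4.21% and 3.39% of all regions), and at 30 min 33 rose and 7 fell (14.4% and 10.6%), with a median of 0.36. Those that rose at 10 min were at Nabp1, Ak5, Dennd4a and Uchl1, and those that fell were at Spry2 (−1.19), Srsf7 (−1.10) and Fgd2 (−0.92). At 10 min 0 rose without the unstimulated replicate 1 or 2 or the depolarized replicate 1, and at 30 min 20 rose without the unstimulated replicate 1. The FHT1015 libraries listed 143439 to 217724 intervals against 227122 to 276666 in DMSO, and the part of this in the results was not tested. The difference between the 30 min responses in FHT1015 and in DMSO was called at 23 of the 105 regions, against 17.9% of all regions. Of the 23, 5 were positive and 18 negative. Among all 68664 regions tested, 7719 were positive and 6.62% were negative. All 5 positive ones and 3 of the negative ones were wide, and the other 15 were narrow. With summits ranked by themselves, 12 of the 23 were also called, 1 of the 5 positive and 11 of the 18 negative. Of the 5 positive ones, 4 had entered the test through depolarized libraries alone.

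The region near Meis2 is an example of the negative difference that held with summits. Its DMSO scores in the 30 min set were 0 and 0.34 unstimulated and 2.30 and 2.52 in KCl, while in FHT1015 they were 1.30 and 1.26 unstimulated and 1.54 and 2.03 in KCl. The unstimulated FHT1015 libraries lay above the unstimulated DMSO libraries, and the response differed by −1.73 ± 0.26 (adjusted p = 0.00126). At Aqp12 a wide region was at 0 in all 4 unstimulated libraries of the 30 min set, at 1.29 and 1.14 in DMSO with KCl and at 2.32 and 2.57 in FHT1015 with KCl. Its depolarized FHT1015 libraries were the highest, and the response differed by 1.23. It had passed the filter through these 4 depolarized libraries alone.

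**Figure D5:**
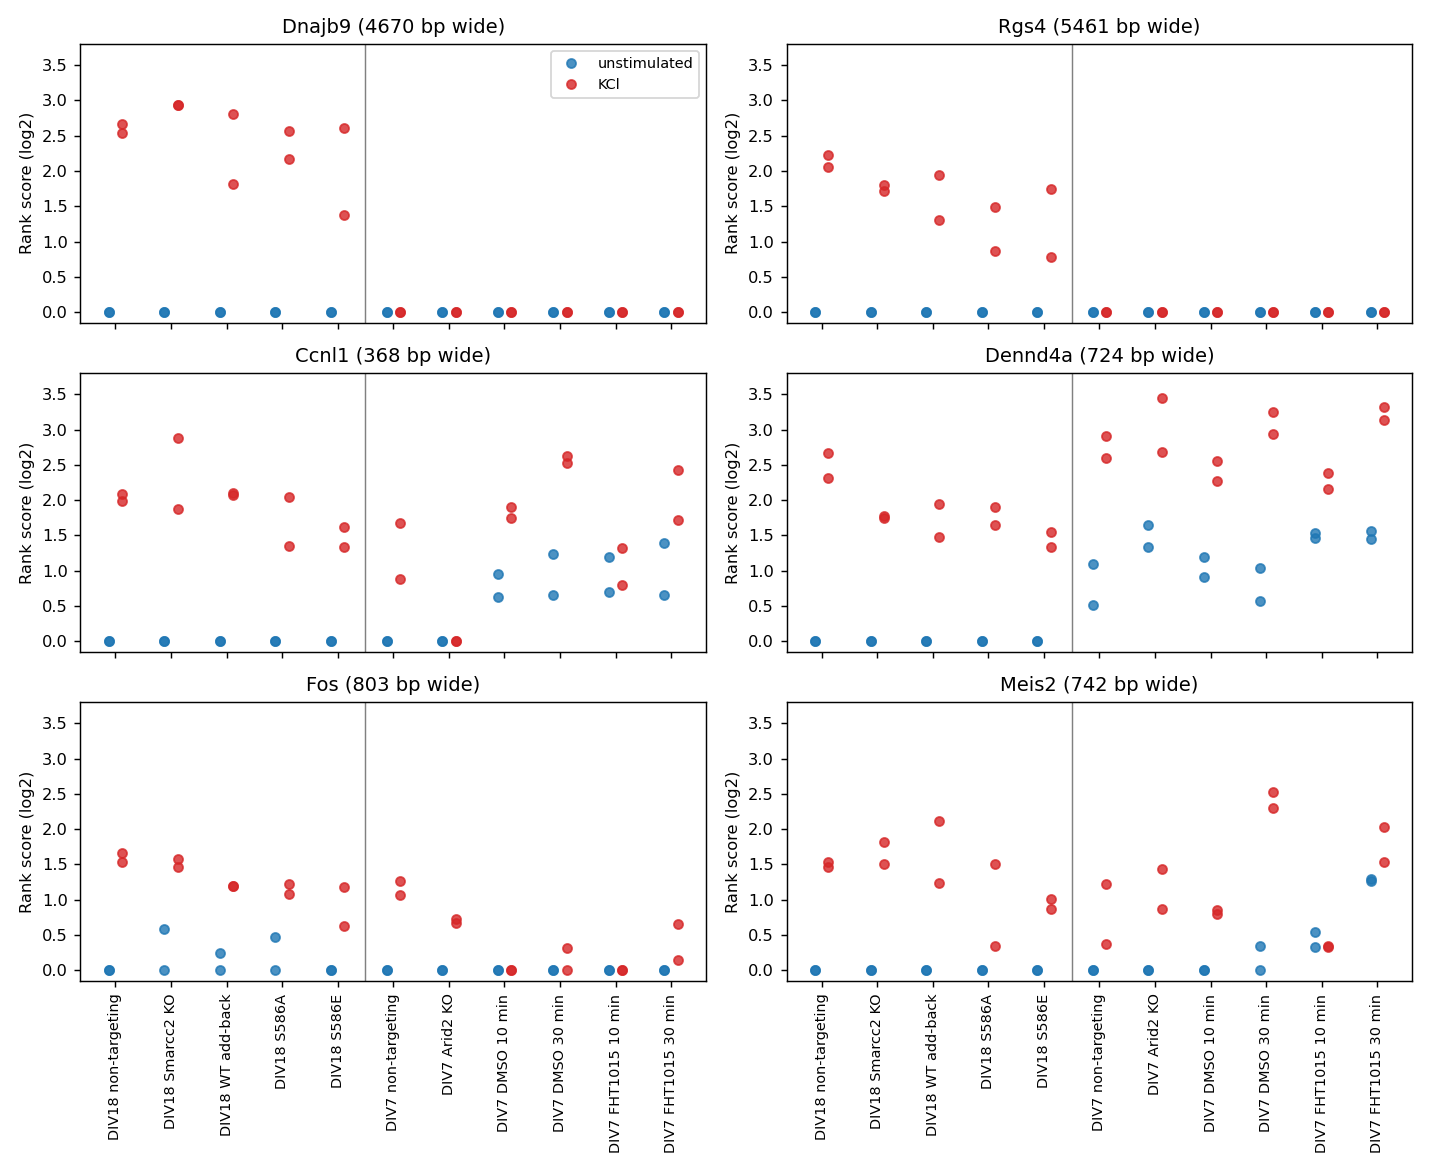
Rank score (log2, vertical axis) of 6 regions in all 44 libraries, by group; each point is 1 library, blue unstimulated and red KCl. The wide regions at Dnajb9 and Rgs4 are above 0 in DIV18 KCl libraries and at a score of 0 in all DIV7 libraries, the region at Dennd4a is higher in KCl than unstimulated in every group, that at Meis2 in every group except FHT1015 at 10 min, and that of Fos is highest at DIV18.

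Ranks lay close together on both sides of the limit of the rule. Just inside it, by the worse of the 2 depolarized non-targeting ranks, were regions at Tpt1 (74977), Rem2 (74937), Best2 (74929), Cpsf2 (74719) and Atp2a2 (74619). Just outside were regions at Mras (75063), Smim41 (75136), Naca (75353), Tmx3 (75461) and Frmd8 (75469). A further 829 regions were in both depolarized top lists and overlapped an interval of 1 of the 2 unstimulated libraries. The weakest of those intervals, at Ip6k2, ranked 261691.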

How the data were processed

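The authors deposited 1 ATAC-seq peak list per library for 44 libraries on mm10. Tools named in the submitters' processing notes, without versions, are MACS2, Bowtie2, bedtools, Picard, SAMtools, Trim Galore and FastQC. Each line is a summit inside an interval. The deposited fold enrichment is a ratio of summit pileup to a background level of the whole library, and the deposited −log10 p and −log10 q come from the authors' peak caller. The deposited score, the −log10 p times 10, was not used. All depend on depth, and no read counts were used. Peaks were listed per library, so the 2 libraries of a group can be compared.

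Intervals overlapping by at least 1 bp were joined to a region. Rank scores were computed per library and fitted with limma 3.58.1 in R 4.3.3, with a trended variance, in 3 separate fits: the 16 DIV18 libraries outside the non-targeting arm, the 8 libraries of the Arid2 experiment and the 16 of the drug experiment. A region entered a fit if 2 or more of its libraries had an interval there ranked within 133009. Weaker intervals did not count. Calls need an adjusted p under 0.05. The script was tested on simulated data. Errors beside changes are limma standard errors. A region is named by its nearest of 20665 autosomal protein-coding genes in RefSeq, of which 16457 had a strand.

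Regions named in the text were those within 100 kb of an activity-list gene, the 10 best by mean rank in the depolarized non-targeting libraries, the 10 with the largest called change over the 4 arms, and up to 5 in each direction called in a difference between responses. The result of 1 region that this rule names is not reported here. Others were chosen after their values were seen, among them the further wide regions at 3′ ends and in gene bodies and those not called. The regions and the gene lists were chosen with earlier results of these data known. Alternatives were single summits, 50% overlap, log2 fold enrichment, no filter, the number of intervals as a covariate, a replicate block and leaving out each library.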

Additional observations from a re-analysis of the deposited data

Results flagged for a closer look

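By a limma interaction term, the response to 30 min of KCl at DIV7 differed between FHT1015 and DMSO at 23 of the 105 regions tested. Of all regions tested 17.9% were called, with 7719 of 68664 positive and 6.62% negative. Of the 23, those farthest from 0 are given here, 5 positive and 4 negative. Values are changes in rank score in FHT1015 minus those in DMSO. The positive ones, all wide, were at Aqp12 (1.23), Mybpc3 (0.74), Ifrd1 (0.70), Slc25a3 (0.66) and Rflna (0.46). Those at Mybpc3, Ifrd1 and Rflna had scores above 0 in the drug experiment only in the 2 depolarized FHT1015 libraries of the 30 min set and passed the filter through these alone. Without a filter, an alternative chosen after the data were seen, 20 regions were called in place of 23.

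The 4 negative ones, all narrow, were at Kansl1 (−6.86), R3hdm2 (−3.46), Tiam1 (−2.03) and Meis2 (−1.73). At Kansl1 the scores in DMSO were 0.83 and 0.50 unstimulated and 4.52 and 4.35 in KCl, and in FHT1015 they were 4.97 and 4.91 unstimulated and 1.91 and 1.80 in KCl. With summits ranked by themselves the difference was −0.77 at Kansl1 (adjusted p = 0.0273) and −1.30 at Meis2 (adjusted p = 9.07e-04). By that measure R3hdm2 (−0.52, adjusted p = 0.116) and Tiam1 (0.05, adjusted p = 0.838) were not called.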

How the results depend on the processing

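For the change over the 4 DIV18 arms, 0 of 836 alternative values of the 38 named regions changed direction and 783 stayed on the same side of the threshold, while 50 lost the call and 3, all at Best2, gained it. The FHT1015 difference at Tiam1 did change sign with summits (−2.03 to 0.05). Over the 4 DIV18 arms 138 regions rose, and 94 to 141 did under the alternatives. The counts by arm moved more. With 50% overlap they were 48 in the knockout, 21 with wild type, 9 with S586A and 6 with S586E; with the covariate 14 with wild type and 3 with S586A; with single summits 30 with wild type and 14 with S586E; with log2 fold enrichment 41 with S586E. At DIV7 the single call at R3hdm2 was lost in both genotypes with summits, 50% overlap and the covariate, and in the knockout with fold enrichment (0), while without a filter 2 and 3 regions rose. The difference between the Arid2 genotypes was called at 2 regions without a filter, an alternative added after the data were seen. In DMSO at 10 min 5 rose with the covariate and 3 with fold enrichment. In FHT1015 at 10 min 2 rose with the covariate, 2 without a filter and 9 with fold enrichment, and at 30 min 13 rose with 50% overlap. With top lists of 50000 the rule gave 21 regions, and with 100000 it gave 618. Leaving out 1 library at a time gave 130 to 135 over the 4 arms, 39 to 57 in the knockout, 6 to 24 with wild type, 2 to 8 with S586A, 1 to 15 with S586E, 0 to 1 and 0 to 0 in the 2 Arid2 genotypes, 4 to 6 and 31 to 37 in DMSO at 10 and 30 min, 0 to 3 and 20 to 29 in FHT1015, and 16 to 24 for the drug difference. The differences between arms gave 0 to 2 for the knockout, 0 to 1 for S586A and 0 to 1 for S586E, each against wild type, and 0 to 1 for Arid2. The main fits did not pair libraries by replicate number. Same-numbered DIV18 libraries correlated weakly but always positively after removing group means, at 0.0324 to 0.164 (median 0.102). The medians were 0.0138 in the Arid2 and −0.00185 in the drug experiment. Whether same-numbered libraries share a culture is not known. With a replicate block 140 rose over the 4 arms, 85, 56, 39 and 32 in the single arms (knockout, wild type, S586A, S586E) and 50 in DMSO at 30 min. Depth could be read only from the lists, and a score of 0 does not separate closed DNA from a weak signal in a shallow library. The cause of these shifts was not tested.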
